A study of Mus musculus with 91 samples.

Results

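The miR-200 family was examined as 8 mature miRNAs, mmu-miR-200b-3p, mmu-miR-200b-5p, mmu-miR-200a-3p, mmu-miR-200a-5p, mmu-miR-429-3p, mmu-miR-200c-3p, mmu-miR-141-3p and mmu-miR-141-5p (written without the species prefix from here on), chosen by name among the 1504 mature mouse miRNAs of the small RNA count table. All 8 were present in that table. The study used Cas9-assisted small RNA sequencing (CAS-seq), a low-input library method that removes adapter products with Cas9, on mouse embryos at E6.5 and E7.5 split into epiblast (Epi), the future body, and extraembryonic ectoderm (Exe), a trophoblast tissue, in order to ask how loss of DNA methyltransferases changed miRNAs around gastrulation. Levels are given as CPM, the counts of a miRNA per 1000000 miRNA counts in its library.

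The natural embryos came from B6D2F1 females (C57BL/6J by DBA2) and males that, per the methods, carried *Oct4-EGFP* on a C57BL/6J background, and 62 libraries covered 16 conditions. Each tissue and stage had *Dnmt3a/3b*-DKO, *Dnmt1*-KO and control embryos and *Dnmt*-null embryos lacking *Dnmt1*, *Dnmt3a* and *Dnmt3b*, with 4 libraries per group except E7.5 Epi control and E7.5 Epi *Dnmt*-null with 3 each. The mutations were stop codons made by injecting base editor RNA and guides into zygotes. Semi-cloned (SC) embryos, from oocytes injected with androgenetic haploid embryonic stem cells (AG-haESCs) in place of sperm, had 3 libraries in each of 6 groups. At E6.5 these were WT, DKO, *Dnmt*-null and DKO;*Dnmt*-null, where the DKO cells lack the imprinting control regions *H19* DMR and *IG* DMR, and at E7.5 they were control, which per the study came from DKO cells, and Mir-6KO;*Dnmt*-null, whose haploid cells also carried miRNA deletions. The study's legends give epiblast for the E6.5 WT, DKO and *Dnmt*-null SC samples, and the titles of SC libraries name no tissue. The AG-haESCs were C57BL/6, grown with LIF and inhibitors of Mek and Gsk3, and gave 3 WT libraries, 3 O48 libraries (the line that the methods used as parent for the miRNA deletions), 2 libraries labelled Mir-6KO and 3 libraries titled 408, a name whose genotype the sources used here do not give, so that they entered no comparison. The labels give O48 no genotype. The study reports making the miRNA deletions in DKO cells, and its methods name O48 as the line transfected for them. By those passages O48 would be a DKO line. Each AG-haESC type stands for the line sampled, and the labels do not say whether libraries of a group came from separate embryos or cultures, so p-values measure the spread between these libraries only.

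MicroRNAs of about 22 bases guide Argonaute to messenger RNAs that pair with the seed, bases 2 to 8 of the miRNA. The miR-200 family is known as a keeper of the epithelial state: its members repress *Zeb1* and *Zeb2*, transcription factors that silence E-cadherin, and these factors in turn repress the genes of the family. At gastrulation, epiblast cells leave an epithelium through the primitive streak and become mesenchyme, which is why the family is of interest in Epi. The family is transcribed from 2 clusters and each hairpin can give a 5p and a 3p arm.

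The mature sequences are shown because the seeds split the 8 members into groups that cross the genomic clusters. Capitals mark the seed, and the sequences are those of RefSeq for GRCm38.p6.
miR-200b-3p: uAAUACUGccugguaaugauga
miR-200c-3p: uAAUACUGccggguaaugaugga
miR-429-3p: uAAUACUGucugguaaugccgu
miR-200a-3p: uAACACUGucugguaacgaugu
miR-141-3p: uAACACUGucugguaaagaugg
miR-200b-5p: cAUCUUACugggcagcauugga
miR-200a-5p: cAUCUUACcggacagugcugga
miR-141-5p: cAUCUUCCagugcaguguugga

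The first 3 share a seed, miR-200a-3p and miR-141-3p share another that differs from it by U4C (positions counted from the 5′ end, the base of miR-200b-3p first), and miR-200b-5p and miR-200a-5p share one of their own. None of these seeds, nor that of miR-141-5p, was found in another mature mouse miRNA of the RefSeq table (0 others). miR-200b-3p and miR-200c-3p differ by 2 bases over 22, U11G and A22G, and miR-200a-3p and miR-141-3p also differ by 2. Reads of such near-identical pairs could be split between them by the counting, so levels within a pair carry that uncertainty.

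The pair of clusters lies on different chromosomes, both on the minus strand of GRCm38. On chromosome 4, Mir200b (156055681 to 156055750), Mir200a (156054896 to 156054985) and Mir429 (156053905 to 156053987) span 1846 bases within introns of the protein-coding gene *Ttll10*, and an exon of the non-coding transcript Gm13648 covers Mir429. On chromosome 6, Mir200c (124718322 to 124718390) and Mir141 (124717914 to 124717985) span 477 bases within the antisense transcript Gm15884, outside its exons.

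Library totals ran from 45242 to 2394918 counts in natural embryos, 154061 to 26970637 in SC embryos and 3813865 to 16501907 in AG-haESCs, so that a count of 0 allowed a level of up to 66.3 CPM in the shallowest natural-embryo library and 1.25 CPM in the deepest. The dissection labels were checked with miR-302/367 miRNAs, which mark primed epiblast, and miRNAs of the *Sfmbt2* intron, which mark trophoblast. In controls the summed miR-302/367 level was 17588 to 30822 CPM in Exe and 130389 to 200354 CPM in Epi at E6.5, and the *Sfmbt2* miRNAs were at 55042 to 92547 CPM in Exe and 7920 to 35112 CPM in Epi. WT SC replicate 3 stood apart, with a summed miR-302/367 level of 21252 CPM against up to 214514 CPM in its group. The 2 libraries labelled Mir-6KO AG-haESC went against their label: their miR-302/367 sum was 239331 to 268002 CPM, against 3659 to 3914 CPM in WT and 924 to 1670 CPM in O48 AG-haESCs, and miR-127-3p, which the study deleted in that line, was at 44853 and 35728 CPM. Their values are given below only as those of the libraries labelled Mir-6KO.

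Family levels were moderate and dominated by a member of each cluster. By mean level over natural embryos, miR-200c-3p ranked 50th and miR-200b-3p 59th among all miRNAs, followed by miR-200a-3p (137th), miR-200b-5p (166th), miR-141-3p (191st), miR-429-3p (218th), miR-200a-5p (311th) and miR-141-5p (363rd). The 8 members together took 0.51% to 1.90% of the counts in natural-embryo libraries, with a median of 1.02%. The abundant pair varied least across the 16 conditions, with a highest condition mean 2.06 times the lowest for miR-200c-3p and 2.08 times for miR-200b-3p, whereas the scarce miR-141-5p varied 10.5 times.

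Neighbours in the order of condition means were mostly close for every member, which does not bear on how far apart the ends lay. Of the 15 neighbouring pairs in the order of 16 conditions, 1 differed by more than the larger SD of the pair for miR-200b-3p, miR-200a-3p and miR-141-3p, and 0 did for the other 5 members. miR-200c-3p was highest in E6.5 Epi control at 6276 CPM and lowest in E7.5 Epi *Dnmt1*-KO at 3051 CPM. miR-200b-3p was lowest in the same E7.5 Epi *Dnmt1*-KO group at 2551 CPM and highest in E7.5 Exe *Dnmt3a/3b*-DKO at 5316 CPM. miR-200a-3p, miR-141-3p and miR-141-5p were highest in E6.5 Exe control, at 1390, 869 and 147 CPM, the last from 1 library at 456 CPM and 3 at 0 to 79.1 CPM.

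**Figure D1:**
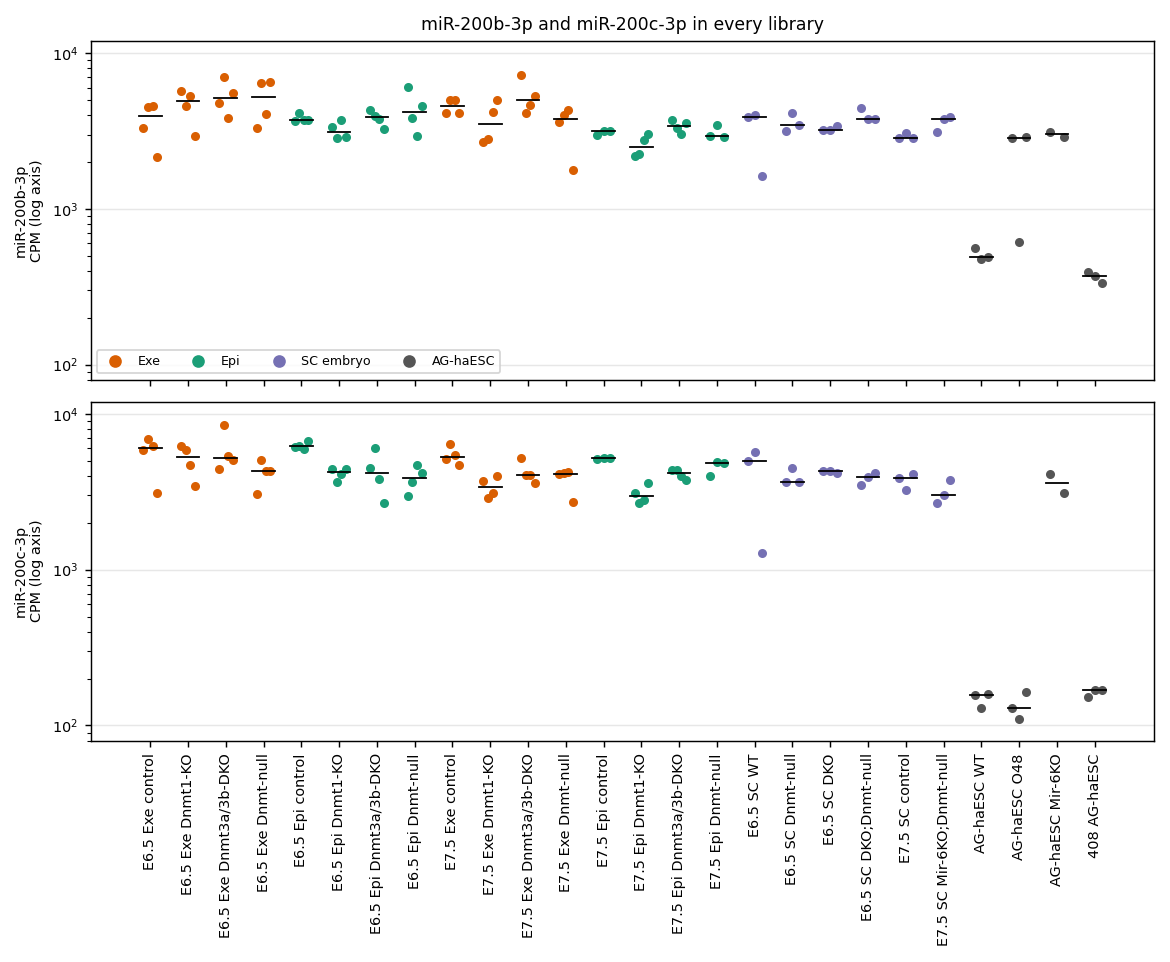
Levels of miR-200b-3p (upper) and miR-200c-3p (lower) in CPM on a log axis, 1 point per library and a bar at each group's median, with groups along the x axis. Embryo libraries lie between 1282 and 8499 CPM for miR-200c-3p, and WT and O48 AG-haESC libraries between 109 and 165 CPM.

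The first comparison asked whether the family separated epiblast from extraembryonic ectoderm. In E6.5 controls miR-200c-3p was at 6158, 6246, 5994 and 6706 CPM in Epi and at 5901, 6935, 6225 and 3088 CPM in Exe. miR-200b-3p was at 3678, 4119, 3708 and 3709 CPM in Epi and at 3316, 4525, 4602 and 2148 CPM in Exe. The tissues overlapped for both, and Exe was the more scattered.

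At E7.5 miR-200c-3p was at 5131, 5249 and 5185 CPM in control Epi and at 5105, 6378, 5430 and 4734 CPM in control Exe. miR-200b-3p was at 2965, 3173 and 3139 CPM in Epi and 4108, 4970, 5001 and 4135 CPM in Exe, so that all 3 Epi libraries were lower. The fitted differences, Epi minus Exe, were 0.47 ± 0.22 (log2 fold change ± SE) for miR-200c-3p and 0.34 ± 0.23 for miR-200b-3p at E6.5, and 0.34 ± 0.23 and −0.16 ± 0.25 at E7.5. With edgeR's quasi-likelihood test, a miRNA was called at an absolute log2 fold change above 0.5 and a Benjamini-Hochberg adjusted p under 0.05. None of the 8 members was called at E6.5 (0 of 8, against 22.8% of the 658 miRNAs tested) or at E7.5 (0 of 8, against 26.4%). Counts at an unadjusted p keep the fold threshold, here and below. With an unadjusted p under 0.05, none passed (0 and 0, against 35.0% and 36.2% of all), and DESeq2 called 0 at each stage. The median log2 fold change of all miRNAs was itself 0.43 at E6.5 and 0.28 at E7.5, and that of the members 0.39 and −0.19. The median of all miRNAs depended on the scaling, being 0.00 at E6.5 with DESeq2 and 0.16 with library totals alone, and −0.08 at E7.5 with library totals alone. On library totals the E7.5 differences were −0.06 ± 0.24 for miR-200c-3p, which turned its sign, and −0.56 ± 0.27 for miR-200b-3p, with 0 members called at either stage. The remaining members had differences of −0.31 to 0.62 at E6.5 and −1.29 to 0.48 at E7.5.

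Other miRNAs tied to the epithelial state were called between the tissues, mostly higher in Epi. The epithelial list held miR-205, miR-203, miR-375 and the miR-183/96/182 cluster, which mark stratified, glandular and sensory epithelia. Of its 9 miRNAs tested, 4 were higher and 1 lower in Epi at E6.5, and 5 were higher and 0 lower at E7.5, with miR-375-3p at 3.35 ± 0.73 (adjusted p = 0.000222), miR-205-5p at 1.68 ± 0.61 (adjusted p = 0.0343) and miR-96-5p at 1.32 ± 0.26. Over all 658 miRNAs 94 were higher and 56 lower at E6.5, or 52 and 80 with the size factors of DESeq2 in edgeR, and 65 and 109 at E7.5. A difference between this list and the family was not tested. The list's median was 1.44 at E6.5 and 1.48 at E7.5. Of 11 mesenchymal miRNAs tested (miR-199, miR-214, miR-143, miR-145 and others), 1 was higher and 1 lower at E7.5, miR-199b-5p at 7.07 ± 1.90 and miR-22-3p at −1.71 ± 0.33.

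Between E6.5 and E7.5 several members had lower levels in control embryos, without passing the adjusted test. In Exe, miR-200a-3p was at 1871, 1453, 1009 and 1227 CPM at E6.5 and at 387, 716, 588 and 445 CPM at E7.5. miR-141-3p was at 1186, 770, 594 and 927 CPM at E6.5 and 370, 378, 322 and 294 CPM at E7.5. Neither overlapped between the stages. The share of all miRNAs without overlap is not given here or elsewhere, so non-overlap alone sets no member apart. The fitted changes were −1.37 ± 0.48 for miR-200a-3p (adjusted p = 0.0708) and −1.33 ± 0.50 for miR-141-3p (adjusted p = 0.09), and that of miR-200b-5p was 1.15 ± 0.41 (adjusted p = 0.0709), with 1 Exe library at E6.5 at 15.2 CPM and the other 3 at 358 to 626 CPM.

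In Epi, miR-200a-3p was at 775, 772, 1184 and 1083 CPM at E6.5 and at 353, 362 and 327 CPM at E7.5, also without overlap, a difference of −1.35 ± 0.53 (adjusted p = 0.0663). Members with the first seed did not overlap in Epi either. miR-429-3p was at 384, 263, 317 and 371 CPM at E6.5 and at 145, 140 and 146 CPM at E7.5 (−1.10 ± 0.75). miR-200b-3p was at 3678 to 4119 CPM and 2965 to 3173 CPM (−0.18 ± 0.25), and miR-200c-3p at 5994 to 6706 CPM and 5131 to 5249 CPM. miR-200c-3p had differences of −0.16 ± 0.24 in Epi and −0.02 ± 0.22 in Exe. None of the 8 was called in Epi (0 of 8, against 17.5% of all) or in Exe (0 of 8, against 7.60%). At an unadjusted p, 1 passed in Epi (against 28.4%) and 3 in Exe (against 19.8%), and DESeq2 called 0 in Epi and those 3 in Exe.

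Next, each mutant was compared with the controls of the same tissue and stage. The 3 mutants share those control libraries, so their values are given side by side and are not independent. In bulk tissue, fewer cells of a type and less RNA per cell cannot be told apart.

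In E7.5 Epi, miR-200c-3p fell in *Dnmt1*-KO embryos. It was at 5131, 5249 and 5185 CPM in control, at 3108, 2664, 2808 and 3627 CPM in *Dnmt1*-KO, at 4394, 4396, 3966 and 3761 CPM in *Dnmt3a/3b*-DKO and at 4017, 4894 and 4809 CPM in *Dnmt*-null. Every mutant library lay below the lowest control library, and *Dnmt1*-KO was the lowest group. The fitted differences were −0.95 ± 0.13 in *Dnmt1*-KO (adjusted p = 4.05e-05), −0.42 ± 0.13 in *Dnmt3a/3b*-DKO (adjusted p = 0.0534) and −0.41 ± 0.14 in *Dnmt*-null (adjusted p = 0.0254), the last under the fold threshold.

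miR-200b-3p of the other cluster was at 2171, 2233, 2756 and 3045 CPM in E7.5 Epi *Dnmt1*-KO, where 1 library lay within the control range of 2965 to 3173 CPM. It was at 3717, 3301, 3024 and 3542 CPM in *Dnmt3a/3b*-DKO and at 2925, 3440 and 2888 CPM in *Dnmt*-null. Its fitted differences were −0.47 ± 0.13 (adjusted p = 0.0195, under the fold threshold), 0.05 ± 0.13 and −0.24 ± 0.14. miR-200a-3p, from the same cluster, was at 614, 570, 497 and 589 CPM in *Dnmt1*-KO, above all 3 controls, a difference of 0.52 ± 0.19 (adjusted p = 0.0761). It was at 492, 398, 472 and 445 CPM in *Dnmt3a/3b*-DKO, also above all controls, and at 344, 490 and 453 CPM in *Dnmt*-null, with differences of 0.29 ± 0.19 and 0.07 ± 0.21. In *Dnmt1*-KO the remaining members had differences of −0.12 ± 0.49 (miR-429-3p), −0.48 ± 0.35 (miR-141-3p), −0.40 ± 0.26 (miR-200b-5p), −0.20 ± 0.64 (miR-200a-5p) and −1.94 ± 0.91 (miR-141-5p), none past the adjusted threshold.

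Thus 1 of 8 members was called lower in E7.5 Epi *Dnmt1*-KO (against 14.9% of 652 miRNAs called and 6.90% called lower), 0 of 8 in *Dnmt3a/3b*-DKO (against 7.06%) and 0 of 8 in *Dnmt*-null (against 31.9%). At an unadjusted p with the fold threshold kept, 0 passed in *Dnmt3a/3b*-DKO (against 17.8%) and 0 in *Dnmt*-null (against 40.5%), and DESeq2 called 2 over the 3 comparisons. Over all miRNAs 52 were higher and 45 lower in *Dnmt1*-KO, or 68 and 22 with library totals alone, under which miR-200c-3p was still lower (−0.77, adjusted p = 0.000329).

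Between *Dnmt*-null and *Dnmt1*-KO themselves, miR-200c-3p was higher in *Dnmt*-null by 0.54 ± 0.13 (adjusted p = 0.00993; 1 of 8 members, against 9.51% called and 4.75% called higher). That call was lost without *Dnmt*-null replicate 3 (0.46, adjusted p = 0.0525), and without *Dnmt1*-KO replicate 2 or 3 the difference fell just under the fold threshold (0.48 and 0.49). The fall of miR-200c-3p in *Dnmt1*-KO held without any single library (−1.03 to −0.90, adjusted p at most 0.000362). Against *Dnmt3a/3b*-DKO, miR-200c-3p of E7.5 Epi *Dnmt*-null differed by 0.00 ± 0.13, and 0 of 8 members were called (against 14.3%, with 0 at an unadjusted p against 21.3%). In the other tissues and stages *Dnmt*-null was not told from either mutant by any member. The counts against *Dnmt1*-KO and *Dnmt3a/3b*-DKO were 0 and 0 of 8 in E6.5 Exe (0% and 0% of all), 0 and 0 in E6.5 Epi (1.96% and 1.22%) and 0 and 0 in E7.5 Exe (1.17% and 3.85%). At an unadjusted p they were 0 and 0 (3.72% and 1.60% of all), 0 and 0 (18.1% and 15.6%), and 0 and 1 (14.9% and 9.55%), the 1 being miR-200b-3p (−0.59 ± 0.24), and DESeq2 called 0 in all 6.

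The markers of the tissue moved in these groups as well. The summed miR-302/367 level was 202279 to 212606 CPM in E7.5 Epi control, 105333 to 164935 CPM in *Dnmt*-null, 135939 to 200375 CPM in *Dnmt1*-KO and 193250 to 203244 CPM in *Dnmt3a/3b*-DKO, and the *Sfmbt2* miRNAs were at 2631 to 3278 CPM in control, 5505 to 11252 CPM in *Dnmt*-null, 3889 to 4738 CPM in *Dnmt1*-KO and 3634 to 7559 CPM in *Dnmt3a/3b*-DKO. All 5 miR-302/367 markers and all 8 *Sfmbt2* markers were detected there. The part of these shifts in the miR-200c-3p result was not tested. Of the 9 epithelial miRNAs tested, 0 were higher and 0 lower in E7.5 Epi *Dnmt1*-KO, and of 11 mesenchymal ones 0 and 0. In *Dnmt*-null the counts were 0 higher and 1 lower, and 0 higher and 4 lower.

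In E6.5 Epi, miR-200c-3p fell in *Dnmt*-null embryos by 0.83 ± 0.25 on the log2 scale (adjusted p = 0.0287). It was at 2984, 3643, 4696 and 4157 CPM in *Dnmt*-null, 4404, 3637, 4089 and 4405 CPM in *Dnmt1*-KO and 4517, 6027, 3813 and 2662 CPM in *Dnmt3a/3b*-DKO, against 5994 to 6706 CPM in control. *Dnmt*-null and *Dnmt1*-KO did not overlap the controls, and 1 *Dnmt3a/3b*-DKO library did. The other differences were −0.65 ± 0.25 in *Dnmt1*-KO (adjusted p = 0.248) and −0.63 ± 0.25 in *Dnmt3a/3b*-DKO (adjusted p = 0.207).

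miR-200b-3p was at 6012, 3811, 2956 and 4579 CPM in E6.5 Epi *Dnmt*-null, on both sides of the controls, a difference of 0.06 ± 0.25. It was at 3334, 2846, 3735 and 2896 CPM in *Dnmt1*-KO and at 4286, 3932, 3794 and 3268 CPM in *Dnmt3a/3b*-DKO. miR-429-3p, from the same cluster, was at 0, 186, 90.0 and 195 CPM in *Dnmt*-null, below all controls (263 to 384 CPM), but on counts of at most 24 per library (−1.54 ± 0.68, adjusted p = 0.147). Its value of 0 came from the shallowest library, where 0 counts allow up to 66.3 CPM. The remaining members had differences of −0.94 (miR-141-5p) to 0.59 (miR-200b-5p) in *Dnmt*-null.

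In E6.5 Epi 1 of 8 members was called lower in *Dnmt*-null (against 13.0% of 409 called and 4.65% called lower), 0 of 8 in *Dnmt1*-KO (against 0.733%) and 0 of 8 in *Dnmt3a/3b*-DKO (against 3.42%). At an unadjusted p, 1 passed in *Dnmt1*-KO (against 12.0%) and 1 in *Dnmt3a/3b*-DKO (against 14.9%), miR-200c-3p in both, and DESeq2 called 3 over the 3 comparisons. Over all miRNAs 34 were higher and 19 lower in *Dnmt*-null, or 44 and 14 with library totals alone. The *Dnmt*-null call rested on few libraries. *Dnmt*-null replicate 1 held 45242 counts, and without it the change was −0.69 (adjusted p = 0.0655). It also missed the threshold without *Dnmt*-null replicate 2 or without control replicate 2, 3 or 4 (adjusted p at most 0.110), and with library totals alone as the scaling (−0.70, adjusted p = 0.0688). The fits without the filter and on only the groups compared lost the call as well. The summed miR-302/367 level was 48473 to 100114 CPM in this *Dnmt*-null group and 130389 to 200354 CPM in control, and the miRNAs of the miR-290 cluster, a mark of naive pluripotency, were at 21396 to 46568 CPM and 68864 to 74001 CPM, whose part in the result was not tested.

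**Figure D2:**
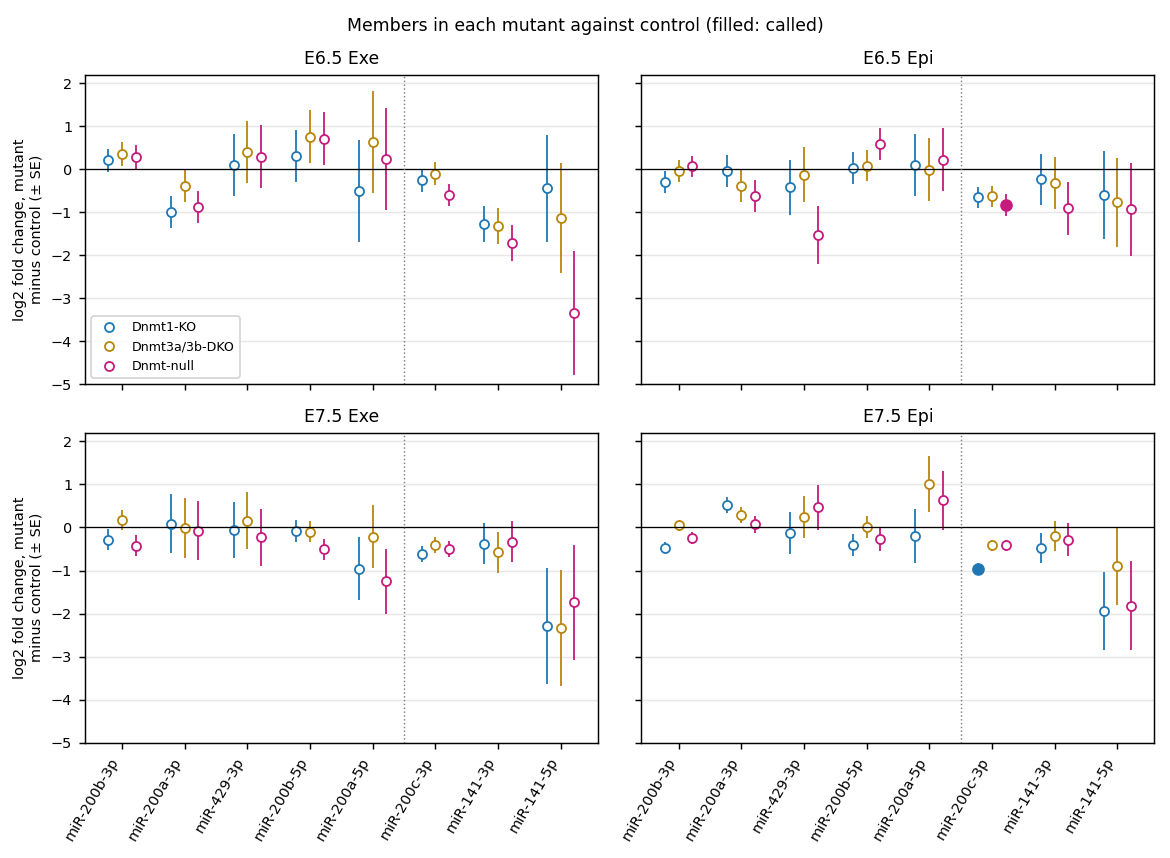
Log2 fold change (y axis, ± SE) of the 8 members in each of the 3 mutants against control, a panel per stage and tissue, with chromosome 4 members left and chromosome 6 members right of the dotted line. Filled points passed the call, which were miR-200c-3p in E6.5 Epi *Dnmt*-null (−0.83) and E7.5 Epi *Dnmt1*-KO (−0.95).

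In Exe no member was called in any mutant. At E7.5 miR-200c-3p was at 3698, 2870, 3123 and 3973 CPM in *Dnmt1*-KO and 4088, 4175, 4252 and 2713 CPM in *Dnmt*-null, all below the 4734 to 6378 CPM of control. It was at 5195, 4075, 4065 and 3622 CPM in *Dnmt3a/3b*-DKO, where 1 library overlapped. The fitted differences were −0.61 ± 0.18 (adjusted p = 0.0577), −0.50 ± 0.18 (adjusted p = 0.093) and −0.40 ± 0.18 (adjusted p = 0.485).

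miR-200b-3p overlapped control in each E7.5 Exe mutant, at 2680 to 4984 CPM in *Dnmt1*-KO, 4112 to 7228 CPM in *Dnmt3a/3b*-DKO and 1782 to 4302 CPM in *Dnmt*-null. The scarce miR-141-5p was at 0, 0, 29.9 and 27.3 CPM in *Dnmt1*-KO, 25.7, 1.92, 19.1 and 9.60 CPM in *Dnmt3a/3b*-DKO and 30.0, 34.3, 21.6 and 0 CPM in *Dnmt*-null, below all controls (46.4 to 94.1 CPM), with fitted changes of −1.74 to −2.35 and SEs of 1.34 to 1.35. The share of miRNAs called was 5.03% in *Dnmt1*-KO, 3.02% in *Dnmt3a/3b*-DKO and 9.88% in *Dnmt*-null (0 of 8 members in each). Without adjustment, 1, 0 and 1 passed (against 16.8%, 8.21% and 19.4%), miR-200c-3p each time, and DESeq2 called 1 over the 3 comparisons.

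In E6.5 Exe, miR-141-3p, the chromosome 6 partner of miR-200c-3p, lay below control in each mutant. It was at 1186, 770, 594 and 927 CPM in control, 516, 361, 379 and 330 CPM in *Dnmt1*-KO, 343, 437, 430 and 340 CPM in *Dnmt3a/3b*-DKO and 391, 465, 160 and 200 CPM in *Dnmt*-null. No mutant library reached the lowest control. The fitted differences were −1.28 ± 0.42 (adjusted p = 0.209), −1.33 ± 0.42 (adjusted p = 0.173) and −1.71 ± 0.43 (adjusted p = 0.061).

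miR-200c-3p itself had smaller differences in E6.5 Exe, −0.26 ± 0.26 in *Dnmt1*-KO, −0.10 ± 0.26 in *Dnmt3a/3b*-DKO and −0.60 ± 0.26 in *Dnmt*-null. Its levels were 3465 to 6188, 4440 to 8499 and 3077 to 5032 CPM against 3088 to 6935 CPM in control. miR-200b-3p was at 2948 to 5719, 3822 to 7030 and 3310 to 6490 CPM against 2148 to 4602 CPM, with differences of 0.20 to 0.36. Few miRNAs of any kind were called here, 0% in *Dnmt1*-KO and 0.532% in each of the others, in libraries of 65751 to 418423 counts. Members called were 0 of 8 in each, with 2, 1 and 4 at an unadjusted p (against 8.78%, 9.04% and 13.0% of all) and 3 by DESeq2, which were miR-141-3p in each mutant. The 2 in *Dnmt1*-KO were miR-141-3p and miR-200a-3p, the latter at 914, 782, 733 and 627 CPM, below all controls (1009 to 1871 CPM; −1.0 ± 0.37, adjusted p = 0.247). The 1 in *Dnmt3a/3b*-DKO was miR-141-3p. The 4 in *Dnmt*-null were miR-141-3p, miR-200c-3p, miR-200a-3p at 320 to 1582 CPM (−0.88 ± 0.38) and the scarce miR-141-5p (−3.34 ± 1.45, adjusted p = 0.275). The other values of miR-200a-5p, miR-200b-5p, miR-429-3p and miR-141-5p lay between −1.14 and 0.76.

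The mutant effect was also compared between tissues. The *Dnmt*-null change in Epi minus that in Exe was −0.59 ± 0.31 for miR-200c-3p at E6.5 (adjusted p = 0.308) and 0.05 ± 0.33 at E7.5, and −0.62 ± 0.32 and 0.15 ± 0.35 for miR-200b-3p. None of the 8 members was called at E6.5 (0.912% of all miRNAs were) or at E7.5 (0.608%). Without adjustment, 1 passed at E6.5 (miR-429-3p, −2.14 ± 1.0, against 18.1% of all) and 0 at E7.5 (against 13.4%), and DESeq2 called 0 at either stage. At E6.5 the median of all miRNAs was −0.68 in this contrast, and −0.13 with DESeq2. Within *Dnmt*-null embryos, Epi against Exe gave 0 of 8 members at E6.5 (against 17.9%) and 0 of 8 at E7.5 (against 16.3%), with 1 and 0 at an unadjusted p (against 28.6% and 28.0%) and 0 by DESeq2.

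Among themselves the members followed the genomic clusters only loosely. Over the 16 condition means of log2 CPM, which share libraries and depth, Pearson's r ran from −0.65 (miR-141-3p with miR-200b-5p) to 0.80 (miR-200c-3p with miR-141-5p), and was 0.40 between miR-200b-3p and miR-200c-3p. The chromosome 4 cluster gave a median of 52.6% of the family's counts in natural embryos (40.3% to 71.2%). It gave 40.3% to 43.1% in E7.5 Epi control and 44.1% to 49.0% in E7.5 Epi *Dnmt*-null, 49.4% to 54.2% in *Dnmt1*-KO and 47.5% to 53.6% in *Dnmt3a/3b*-DKO, with no mutant overlapping control. The miRNAs outside the family most like the chromosome 4 members over the 16 conditions, among 364 candidates, were miR-672-5p (r = 0.83), miR-144-3p (r = 0.78) and let-7f-5p (r = 0.78), and those most like the chromosome 6 members were miR-100-5p (r = 0.56), miR-30b-5p (r = 0.55) and miR-290b-5p (r = 0.54).

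**Figure D3:**
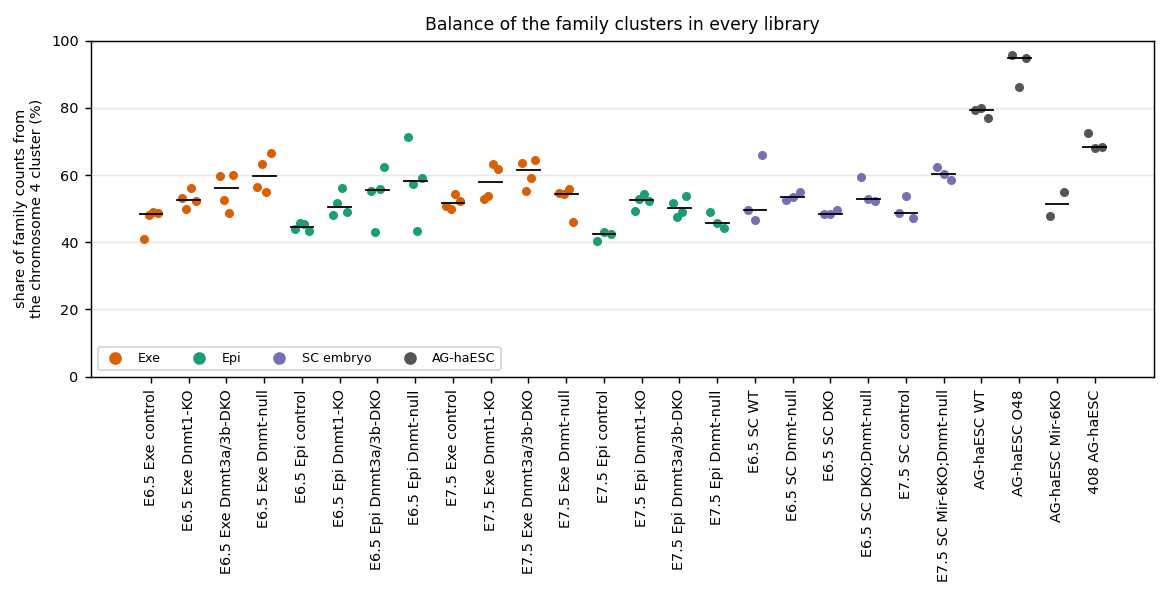
Share of the family's counts (y axis, %) that came from the 5 chromosome 4 members, 1 point per library and a bar at each group's median. Natural embryos lie between 40.3% and 71.2%, WT AG-haESCs between 77.0% and 79.9% and O48 AG-haESCs between 86.1% and 95.7%.

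The family's share of counts in SC embryos, 0.52% to 1.2%, lay within the range of natural embryos. At E6.5 miR-200c-3p was at 4951, 5687 and 1282 CPM in WT, 3635, 4488 and 3669 CPM in *Dnmt*-null and 4297, 4324 and 4207 CPM in DKO. miR-200b-3p was at 3895, 3995 and 1618 CPM in WT, 3181, 4133 and 3451 CPM in *Dnmt*-null and 3228, 3206 and 3403 CPM in DKO. The low WT value is replicate 3, the library that stood apart, and both of its values lay below those of every natural-embryo library.

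Against WT, 0 of 8 members were called in *Dnmt*-null (1.52% of all) and 0 of 8 in DKO (0.217%), with 1 each at an unadjusted p (miR-200b-5p, −1.27 ± 0.57 and −1.48 ± 0.56, against 18.9% and 13.0% of all) and 0 by DESeq2. WT replicate 3 held miR-200b-5p at 1405 CPM, against 479 and 486 CPM in the other 2. Without that library miR-200c-3p was lower in *Dnmt*-null, with a difference of −0.66 ± 0.17 (adjusted p = 0.0394), 1 of 8 members, and 0 of 8 were called in DKO. The miR-302/367 sum was 195381 and 214514 CPM in these 2 WT libraries and 82565 to 122808 CPM in *Dnmt*-null, and the *Sfmbt2* miRNAs were at 13823 and 18461 CPM and at 19057 to 59429 CPM. Their part in the difference was not tested.

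DKO;*Dnmt*-null SC embryos held miR-200c-3p at 3511, 3923 and 4175 CPM and miR-200b-3p at 4457, 3782 and 3792 CPM, against DKO. The differences were −0.25 ± 0.09 (adjusted p = 0.0362) and 0.19 ± 0.08 (adjusted p = 0.0807), and that of miR-141-3p was −0.27 ± 0.10 (adjusted p = 0.0464). None reached the fold threshold (0 of 8, against 26.5% of all). Without adjustment 1 passed (miR-141-5p, −0.64 ± 0.26, against 31.0%), and DESeq2 called 0. The DKO;*Dnmt*-null libraries came from a table of their own, so table and genotype cannot be told apart.

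In the E7.5 SC Mir-6KO;*Dnmt*-null libraries, miR-127-3p, a miRNA the study deleted, was at 51921, 34218 and 46054 CPM, against 67386, 55158 and 52288 CPM in SC control. It was lower in all 3 but still abundant. The study calls these deletions heterozygous in SC embryos and describes miRNAs of the *Dlk1*-*Dio3* region, which holds miR-127, as maternally expressed. miR-369-5p, also deleted, overlapped control, at 448, 219 and 286 CPM against 305, 321 and 290 CPM. At E7.5 miR-200c-3p was at 3870, 3272 and 4142 CPM in SC control and 2664, 3034 and 3790 CPM in Mir-6KO;*Dnmt*-null, and miR-200b-3p at 2837, 3064 and 2840 CPM and 3130, 3780 and 3892 CPM. miR-141-3p was at 376, 347 and 531 CPM in control and 251, 244 and 169 CPM in Mir-6KO;*Dnmt*-null, without overlap (−1.17 ± 0.32, adjusted p = 0.124). None of 7 members tested was called (0, against 3.08% of all), and 1, miR-141-3p, passed at an unadjusted p (against 10.8%) and with DESeq2. miR-141-5p was not tested, being at 0 counts in all 3 control libraries.

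In cultured cells, all 8 members were lower in WT AG-haESCs than in WT SC embryos (8 of 8, against 49.5% of 505 miRNAs called and 26.7% called lower). miR-200c-3p was at 157, 129 and 159 CPM in WT AG-haESCs, a difference of −4.41 ± 0.43 (adjusted p = 2.22e-05). miR-200b-3p was at 559, 478 and 492 CPM, a difference of −2.33 ± 0.29 (adjusted p = 7.91e-05).

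The chromosome 6 members and the 5p arm of miR-200b had the largest differences: −4.96 ± 0.33 for miR-141-3p at 16.1, 15.2 and 17.6 CPM, and −5.33 ± 0.59 for miR-200b-5p at 20.3, 17.0 and 16.8 CPM. The other members had differences of −2.50 ± 0.53 (miR-429-3p), −3.14 ± 0.58 (miR-200a-5p), −3.36 ± 0.43 (miR-200a-3p) and −5.24 ± 1.35 (miR-141-5p, 9, 0 and 0 counts in the cells). Over all miRNAs 115 were higher and 135 lower, or 91 and 147 with library totals alone, which calls all 8 as well. All 8 calls held without WT SC replicate 3, with miR-200c-3p at −4.77 ± 0.18 and miR-200b-3p at −2.56 ± 0.17, and with miR-200b-5p, which that library held high, at −4.34 ± 0.26. Together the members took 0.07% to 0.09% of counts in WT AG-haESCs and 0.52% to 1.2% in SC embryos.

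The epithelial and mesenchymal lists did not follow the family. Of 9 epithelial miRNAs tested, 4 were higher and 2 lower in WT AG-haESCs than in WT SC embryos. Of 9 mesenchymal miRNAs, 8 were higher and 0 lower. The summed level of the primed epiblast markers, given above, was lower in WT AG-haESCs than in every WT SC library, as the family was. The part of this marker shift in the family's difference was not tested.

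Between haploid lines, the 3 members called were all of chromosome 4. Genotype and line cannot be told apart in this comparison, and miR-127-3p, a miRNA of the *Dlk1*-*Dio3* region that *IG* DMR controls, was at 551, 594 and 556 CPM in O48 against 12493, 12678 and 12811 CPM in WT. In O48 cells miR-200b-3p was at 2864, 614 and 2902 CPM, against 559, 478 and 492 CPM in WT. miR-429-3p was at 128, 44.9 and 119 CPM, against 22.3, 32.7 and 19.1 CPM. miR-200b-5p was at 149, 31.0 and 95.5 CPM, against 20.3, 17.0 and 16.8 CPM.

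None of the 3 overlapped, but O48 replicate 2 lay near the WT level each time. Members called higher in O48 were 3 of 8 (against 13.5% of 773 called and 2.07% called higher): miR-200b-5p by 2.38 ± 0.53 (adjusted p = 0.0206), miR-200b-3p by 2.09 ± 0.51 (adjusted p = 0.031) and miR-429-3p by 2.0 ± 0.49 (adjusted p = 0.032). miR-200a-3p was at 317, 65.9 and 351 CPM, against 67.9, 29.3 and 59.3 CPM (2.26 ± 0.62, adjusted p = 0.0515), and miR-200a-5p at 32.7, 6.72 and 35.8 CPM, against 5.97, 12.8 and 4.98 CPM (1.69 ± 0.71, adjusted p = 0.208).

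On chromosome 6, miR-200c-3p was at 130, 109 and 165 CPM in O48 (−0.11 ± 0.18) and miR-141-3p at 25.0, 13.3 and 26.6 CPM (0.44 ± 0.39), both overlapping WT. Without O48 replicate 2, all 5 chromosome 4 members were called (5 of 8), miR-200b-3p at 2.56 ± 0.10 and miR-200a-3p at 2.73 ± 0.38. Without any other library of the pair of lines, the calls of miR-200b-3p, miR-200b-5p and miR-429-3p were lost, with adjusted p-values of at most 0.131, 0.0953 and 0.137, while the differences stayed between 1.78 and 2.51. Over all miRNAs 16 were higher and 88 lower in O48, or 79 and 94 with DESeq2, which moved the median of all miRNAs from −0.28 to 0.09. Of the 9 epithelial miRNAs tested, 2 were higher in O48, both arms of miR-205 (named after their values were seen), and 0 lower.

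**Figure D4:**
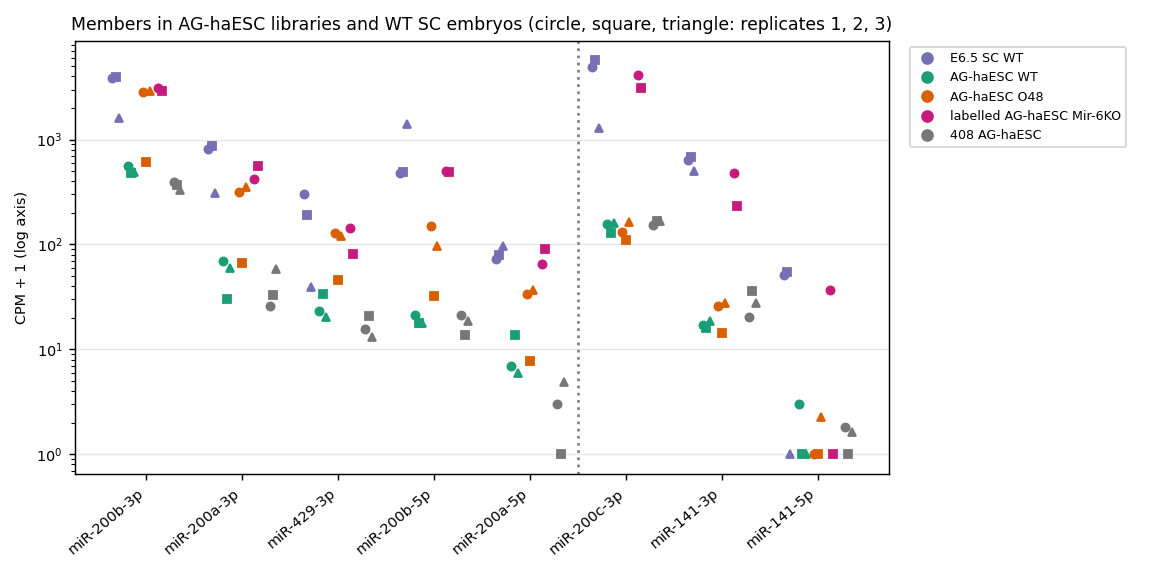
Level of each member (CPM + 1, log axis) in WT SC embryos and AG-haESC libraries, with chromosome 4 members left and chromosome 6 members right of the dotted line and symbols for replicates. O48 replicates 1 and 3 hold miR-200b-3p at 2864 and 2902 CPM and replicate 2 at 614 CPM, while miR-200c-3p is at 109 to 165 CPM in O48.

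The 2 libraries labelled Mir-6KO AG-haESC had embryo-like family levels, 0.75% and 0.89% of counts. miR-200c-3p was at 4120 and 3120 CPM and miR-200b-3p at 3129 and 2890 CPM. Against O48, 3 of 8 members were called higher (against 51.6% called and 20.2% called higher), miR-200c-3p by 4.24 ± 0.22 (adjusted p = 1.79e-06), miR-141-3p by 3.51 ± 0.44 (adjusted p = 0.000335) and miR-200b-5p by 1.92 ± 0.55 (adjusted p = 0.0213). Over all miRNAs 156 were higher and 243 lower, or 186 and 204 with library totals alone. The miR-302/367 sum of these libraries, given above, moved with this difference, and its part was not tested.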

How the data were processed

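Per the study's methods, trimming used fastp 0.20.1 and alignment to GRCm38 used Bowtie 1.2.1.1, after which the authors assigned reads to miRBase mature miRNAs and deposited raw read counts per mature miRNA, not normalized. Of an older table that was not used here, 8 columns carry no sample title. From the counts, CPM were computed on library totals, and differences were tested with edgeR 4.0.16 (quasi-likelihood F test, TMM factors, filterByExpr with a count minimum of 10, Benjamini-Hochberg adjustment over all miRNAs tested) in R 4.3.3. Natural-embryo tissue and stage comparisons used all 62 libraries, and mutant comparisons the 4 genotypes of a tissue and stage. Each SE is the log2 fold change divided by the square root of F. The fits were tested on simulated data. All 8 members were to be named in every comparison, with every library for the most abundant 3p member of each cluster and for members called, and up to 3 non-members per list or cluster. The members and lists were chosen with earlier results of these data known. Alternatives were DESeq2 1.42.0, other scalings, no filter, only the groups compared, a replicate block, unadjusted p and leaving out each library. Floors (3 counts) cover counting error only, whereas each SE also takes in the spread between libraries. Replicates were compared first: over 115 pairs of libraries within groups, the lowest chi-square per degree of freedom was 4.20, so none was taken as a copy.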

Additional observations from a re-analysis of the deposited data

Results flagged for a closer look

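A library was marked where its gap to the nearest other of its group of 4 passed Dixon's 95% critical value. Of 112 member groups tested, 18 were marked, where 1 in 20 would give 5.6. The library with most marks was E7.5 Exe *Dnmt*-null replicate 4, lowest for 4 members: miR-200a-3p 4.76 CPM (others 516 to 912), miR-200c-3p 2713 CPM (4088 to 4252), miR-141-3p 34.5 CPM (328 to 394) and miR-141-5p 0 CPM (21.6 to 34.3). E6.5 Epi *Dnmt*-null replicate 1, of 45242 counts, was lowest for 3, with miR-429-3p, miR-141-3p and miR-200a-5p each at 0 CPM (others 90.0 to 195, 365 to 525 and 135 to 154).

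E7.5 Exe *Dnmt1*-KO replicate 2 was lowest for miR-429-3p at 2.96 CPM (others 193 to 388) and miR-200a-5p at 0 CPM (81.7 to 116). E6.5 Epi *Dnmt1*-KO replicate 3 was lowest for miR-141-3p at 451 CPM (522 to 528) and highest for miR-200a-5p at 183 CPM (70.3 to 76.6). In E6.5 Exe, control replicate 1 held miR-200b-5p at 15.2 CPM (358 to 626), *Dnmt1*-KO replicate 3 miR-200a-5p at 0 CPM (55.0 to 119), *Dnmt*-null replicate 1 miR-429-3p at 52.7 CPM (416 to 548) and *Dnmt*-null replicate 3 miR-200a-5p at 0 CPM (122 to 169).

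E6.5 Epi control replicate 2 was highest for miR-200b-3p at 4119 CPM (3678 to 3709). E7.5 Exe *Dnmt3a/3b*-DKO replicate 3 was lowest for miR-141-3p at 154 CPM (255 to 271), and E7.5 Epi *Dnmt3a/3b*-DKO replicate 3 highest for miR-200a-5p at 144 CPM (81.9 to 89.5). In the 3 AG-haESC libraries titled 408, which entered no comparison, miR-141-3p was at 19.5, 35.4 and 26.4 CPM, the lowest of them above the 15.2 to 17.6 CPM of WT AG-haESCs.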

How the results depend on the processing

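Counts of members called changed as follows. With unadjusted p they were 1 for stage in control Epi, 3 for stage in control Exe, 1 for tissue in E6.5 *Dnmt*-null, 7 and 4 for mutants against control at E6.5 (Exe, then Epi), 2 and 3 for the same at E7.5, 1 for *Dnmt*-null against other mutants in E7.5 Exe, 1 for tissue by genotype at E6.5, and 2, 1 and 1 for SC embryos at E6.5, DKO;*Dnmt*-null and E7.5. O48 against WT in AG-haESCs had 5 with unadjusted p. DESeq2 called 3 for stage in Exe, 3, 3, 1 and 2 for mutants in the same order of tissues, and 1 for E7.5 SC embryos. RLE factors gave 2 for stage in Exe and 1 and 2 for mutants in E7.5 Exe and Epi, and library totals alone 0 for mutants in E6.5 Epi and 1 and 2 for those of E7.5 Exe and Epi. Without the filter E6.5 Epi mutants had 0. With only the groups compared, E7.5 control tissue had 1, stage 2 in Epi and 2 in Exe, and E6.5 Epi mutants 0. With the replicate block, mutants had 1 in E6.5 Exe and 2 in E7.5 Epi, and AG-haESCs 3 in place of 6, the O48 calls being lost. The numbers did not pair natural embryos (0 of 120 group pairs with every correlation over 0.1). Leaving out 1 library at a time gave 0 to 1 for stage in Epi and Exe, mutants in both E6.5 tissues and in E7.5 Exe, *Dnmt*-null against other mutants in E7.5 Epi, and SC embryos at E6.5 with and without DKO;*Dnmt*-null, 1 to 3 for E7.5 Epi mutants, 2 to 8 for AG-haESCs (8 without O48 replicate 2), and 8 to 8 for WT AG-haESCs against SC embryos. Libraries of at least 100000 counts alone, an alternative chosen after seeing the data, gave the same counts in natural embryos. The cause of these changes was not tested.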

Other observations

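Of 16 miRNAs at least 2-fold higher in O48 replicates 1 and 3 than in WT, replicate 2 was nearer to WT for 8, which were the 5 chromosome 4 members, miR-205-5p, miR-450a-5p and miR-450b-5p, named after their values were seen.

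The ratio of miR-200c-3p to miR-200b-3p was 1.65 to 1.73 in E7.5 Epi control, 1.37 to 1.67 in *Dnmt*-null, 1.02 to 1.43 in *Dnmt1*-KO and, for *Dnmt3a/3b*-DKO, 1.06 to 1.33. It was 1.52 to 1.81 in E6.5 Epi control, 0.50 to 1.59 in *Dnmt*-null, 1.09 to 1.52 in *Dnmt1*-KO and, for *Dnmt3a/3b*-DKO, 0.81 to 1.53.

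In the 3 AG-haESC libraries titled 408, miR-200b-3p was at 393, 368 and 332 CPM and miR-200c-3p at 152, 168 and 168 CPM, and the chromosome 4 members gave 68.0% to 72.5% of the family's counts.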
